A study of Mus musculus with 4 samples.

Results

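The interleukin-1 (IL-1) genes described here are 10 of the 31053 genes in the count matrices: the agonists Il1a and Il1b, the antagonist Il1rn, the signalling receptor chain Il1r1, the decoy receptor Il1r2, the shared co-receptor Il1rap, the related cytokine Il18 with its receptor chain Il18r1, and the inflammasome genes Nlrp3 and Casp1. They were chosen by name and not by their values, and all 10 were found. Live CD45+ cells had been sorted from lungs of C57BL/6 mice and sequenced by droplet single-cell RNA-seq (10x 3′ chemistry) as 4 libraries. These were a WT and a Rab37 KO library from Matrigel-injected mice, labelled normal lung, and a WT and a Rab37 KO library from mice injected with LLC cells (Lewis lung carcinoma, a C57BL/6-derived lung cancer line), labelled lung tumor, all taken at day 14. Rab37 encodes a small GTPase of vesicle traffic. Each group is 1 library, and the labels do not say how many mice it came from, nor the age or sex of the mice or the design of the Rab37 allele. The values below therefore have no error between mice: the intervals are exact 95% intervals that cover counting error only, and no p-value is given.

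Interleukin-1 alpha and beta act through the same receptor, made of Il1r1 and Il1rap, which signals through MyD88. The antagonist encoded by Il1rn occupies Il1r1 without recruiting the co-receptor, and Il1r2 binds the agonists but lacks the signalling domain. Pro-IL-1 beta and pro-IL-18 are cut by caspase-1, which is activated in inflammasomes such as that of NLRP3, so mRNA levels do not give the amount of active cytokine. Neutrophils, monocytes and macrophages are known sources of IL-1 beta in inflamed lung.

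The members lie on chromosomes 1, 2, 9, 11 and 16 of GRCm38 (Gencode vM21). Il1r2 (chr1:40074079-40125231), Il1r1 (chr1:40225080-40317257) and Il18r1 (chr1:40465552-40500854) are neighbours on the forward strand of chromosome 1. Il1a (chr2:129299610-129309972) and Il1b (chr2:129364570-129371139) lie side by side on the reverse strand of chromosome 2, and Il1rn (chr2:24336853-24351494, forward) is on the same chromosome at a distance. Il18 is at chr9:50554827-50581840, Casp1 at chr9:5298517-5307265, Nlrp3 at chr11:59541568-59566956 and Il1rap at chr16:26581704-26730117, all on the forward strand. The 250 bases before the start of Il1a, of Il1b and of the 2 RefSeq starts of Il1rn whose windows held a motif match (of 3 starts) are shown because the counts below set these agonists against this antagonist in the same cells. They are RefSeq sequences of GRCm38.p6, 5′ to 3′ on the gene's strand, with every match of the searched motifs in capitals.
Il1a (chr2:129309973-129310222, reverse strand): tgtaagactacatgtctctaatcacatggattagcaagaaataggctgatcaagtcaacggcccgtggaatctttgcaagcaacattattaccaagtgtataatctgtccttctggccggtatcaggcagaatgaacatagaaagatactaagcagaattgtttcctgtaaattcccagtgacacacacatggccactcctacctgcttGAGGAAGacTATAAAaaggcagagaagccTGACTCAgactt
Il1b (chr2:129371140-129371389, reverse strand): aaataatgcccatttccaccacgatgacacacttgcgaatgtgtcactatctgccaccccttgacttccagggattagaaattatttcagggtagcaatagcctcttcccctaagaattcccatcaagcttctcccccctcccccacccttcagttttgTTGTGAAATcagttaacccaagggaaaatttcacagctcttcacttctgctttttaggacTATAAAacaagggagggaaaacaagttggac
Il1rn, upstream start (chr2:24336610-24336859, forward strand): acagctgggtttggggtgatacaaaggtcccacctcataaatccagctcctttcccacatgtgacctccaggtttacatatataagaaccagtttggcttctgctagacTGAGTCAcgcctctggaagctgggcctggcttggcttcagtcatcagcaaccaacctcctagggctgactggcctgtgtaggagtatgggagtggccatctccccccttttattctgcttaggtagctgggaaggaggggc
Il1rn, downstream start (chr2:24345121-24345370, forward strand): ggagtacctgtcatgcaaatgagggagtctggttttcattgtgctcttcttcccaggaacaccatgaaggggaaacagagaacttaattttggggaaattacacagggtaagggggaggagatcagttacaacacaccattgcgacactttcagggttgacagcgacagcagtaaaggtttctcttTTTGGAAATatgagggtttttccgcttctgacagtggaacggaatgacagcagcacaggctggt
The motifs, searched on both strands, were TATAAA (in 12.4% of all 32851 promoter windows of 250 bases), the C/EBP motif TTNNGNAAT (10.2%), the PU.1 motif GAGGAAG (10.6%), the AP-1 motif TGANTCA (6.75%) and the NF-kappaB motif by its name (7.25%). In the Il1a window, TATAAA ended 27 bases, GAGGAAG 35 bases and TGACTCA 6 bases before the start. In the Il1b window, TATAAA ended 26 bases and the C/EBP match TTGTGAAAT 83 bases before the start. The upstream Il1rn window held 1 match, the AP-1 match TGAGTCA, which ended 135 bases before the start. The downstream Il1rn window held 1 match, the C/EBP match TTTGGAAAT, 56 bases before the start, and the third Il1rn window (chr2:24345041-24345290), which overlaps it, held none. No other motif searched was in the windows shown, which says only that the letters are not in this stretch, and all matches are descriptions of letters.

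After filtering, 13078 cells were kept: 5063 in the normal WT library, 4646 in normal Rab37 KO, 644 in WT tumor and 2725 in Rab37 KO tumor. Their summed UMIs (unique molecular identifiers, 1 for each captured mRNA molecule) ranged from 5183771 in tumor WT to 34369993 in normal WT, and median UMIs per cell from 3979 to 6556. Rab37 was at 8.50 and 4.63 CPM (UMIs per 1000000 UMIs of the same cells) in the normal and tumor WT libraries and at 0.385 and 0.266 CPM in the matching Rab37 KO libraries. Both normal libraries held Xist and Y-linked UMIs, whereas the tumor WT library had 2206 Xist and 1 Y-linked UMI and the tumor Rab37 KO library 1 and 4478. Sex and Rab37 genotype therefore cannot be told apart in the tumor. The tumor libraries also carried another software version in their file headers than the normal ones, so tissue and processing run cannot be told apart. At most 6 cell barcodes were shared by any pair of libraries. Lineages were assigned from marker genes after clustering without the members. Every marker of the neutrophil-like (10 markers) and monocyte/macrophage-like (24 markers) lineages was detected in each library, and Ptprc, the gene of CD45, lay between 394 and 2295 CPM in the immune lineages with 20 or more cells other than plasma cell-like cells, which were at 78.0 CPM in normal WT (26 cells). Neutrophil-like cells numbered 386 in normal WT, 565 in normal Rab37 KO, 209 in WT tumor and 1317 in Rab37 KO tumor, and monocyte/macrophage-like cells 366, 320, 200 and 450. Clusters with markers of more than 1 lineage were left out of the named lineages by a rule set after the clusters were seen. They made up 4.38% and 3.92% of cells in normal WT and normal Rab37 KO, 3.73% in WT tumor and 14.5% in Rab37 KO tumor.

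Il1b was the member with the most UMIs in every library, and neutrophil-like cells were its largest source. These cells held 46.5% of the library's Il1b UMIs in normal WT, 58.9% in normal Rab37 KO, 69.9% in WT tumor and 57.9% in Rab37 KO tumor, and the left-out cells of mixed markers held 20.7%, 16.3%, 11% and 29.5%. Within neutrophil-like cells Il1b was at 10145 CPM (9941 to 10352) in normal WT, 10316 CPM (10160 to 10474) in normal Rab37 KO, 8410 CPM (8175 to 8649) in WT tumor and 9402 CPM (9333 to 9472) in Rab37 KO tumor. The tumor WT library was the lowest, but the 4 libraries lay close to each other, and the Rab37 KO library was 1.02-fold the WT library in normal lung and 1.12-fold (1.09 to 1.15) in tumor. The tumor Rab37 KO value also pools deep clusters of lower Il1b that had few tumor WT cells, described below. With every cell thinned to 1000 UMIs, 96.8%, 95.5%, 87.7% and 94.4% of neutrophil-like cells had an Il1b UMI in the same order of libraries, after 7, 7, 6 and 20 shallower cells were left out. Unthinned, these shares were 98.4%, 98.6%, 91.4% and 97.0%, at median depths of 2249, 2627, 2133 and 3487 UMIs. Among thinned B-like cells, which should lack Il1b and had median depths of 2811 to 3880 UMIs, the share was 0.728% and 1.24% in normal WT and Rab37 KO, 0 of 55 cells in tumor WT (up to 6.49%) and 4.62% in tumor Rab37 KO.

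The level of Il1b differed more between libraries among monocyte/macrophage-like cells. It was at 753 CPM (718 to 789) in normal WT, 850 CPM (812 to 889) in normal Rab37 KO, 365 CPM (342 to 390) in WT tumor and 2054 CPM (2019 to 2090) in Rab37 KO tumor. The tumor WT library was the lowest and the tumor Rab37 KO library the highest, with both normal libraries between them. The tumor ratio of Rab37 KO to WT was 5.63 (5.25 to 6.03), and it lay between 3.04 and 6.74 in the 11 alternative settings that gave a value. The thinned share of cells with an Il1b UMI was 32.9%, 41.7%, 26.1% and 59.5% in the 4 libraries (unthinned 56.3%, 64.1%, 48.0% and 81.6%), at median depths of 5370.5, 6301, 9142 and 9659.5 UMIs, with 10, 13, 1 and 18 shallower cells left out. Neutrophil marker RNA was also higher in tumor Rab37 KO than in tumor WT. The 10 neutrophil markers (S100a8, S100a9, Retnlg, Csf3r, Cxcr2, G0s2, Mmp9, Hdc, Mmp8 and Ly6g, no member among them) made up 0.0987% and 0.0815% of the UMIs of monocyte/macrophage-like cells in normal WT and Rab37 KO, 0.712% in WT tumor and 1.05% in Rab37 KO tumor. In these libraries 1.37%, 1.88%, 9.50% and 15.1% of the cells were at 1% or more. Both tumor libraries had more of this RNA than the normal libraries. Without the cells at 1% or more, the Il1b ratio of tumor Rab37 KO to WT was 6.36. The part of neutrophil RNA in the Il1b ratio was not tested. The same holds for the ratios of Il1rn, Il1r2, Il1rap and Nlrp3 in these cells, genes that are also highest in neutrophil-like cells.

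Il1a had far fewer UMIs than Il1b in neutrophil-like cells, and it was highest in the tumor Rab37 KO library. It was at 37.8 CPM (26.3 to 52.5) in normal WT, 30.4 CPM (22.5 to 40.2) in normal Rab37 KO, 31.1 CPM (18.4 to 49.1) in WT tumor and 85.5 CPM (79.0 to 92.4) in Rab37 KO tumor. The first 3 libraries overlapped in their intervals, and the tumor ratio of Rab37 KO to WT was 2.75 (1.73 to 4.67), from 637 and 18 UMIs. Of the 18 UMIs in tumor WT, 6 (33.3%) came from 1 cell. Among monocyte/macrophage-like cells Il1a was at 18, 53.0, 11.5 and 46.5 CPM in normal WT, normal Rab37 KO, tumor WT and tumor Rab37 KO, so both Rab37 KO libraries were above their WT library. Of the 119 UMIs in normal Rab37 KO, 58.8% came from 1 cell. The ratio of Rab37 KO to WT was 2.95 in normal lung, or 1.83 without the cell with the most Il1a UMIs in each library, and 4.03 (2.73 to 6.17) in tumor. The tumor ratio lay between 3.42 and 14.4 in the alternative settings, the highest with clusters weighted alike. Of the 28 Il1a UMIs in tumor WT, 27 lay in the Spp1/Gpnmb cluster described below (111 cells). That cluster held 6 of the 288 UMIs in tumor Rab37 KO (25 cells). The Arg1/Vcan, Arg1/C1qb and classical monocyte clusters had 0 Il1a UMIs in tumor WT and 120, 126 and 7 in tumor Rab37 KO. The tumor ratio therefore also compares different clusters. In alveolar macrophage-like cells, the resident macrophages of the airspace, Il1a ran the other way in normal lung: 118 CPM (112 to 125) in WT against 39.0 CPM (35.2 to 43.1) in Rab37 KO, 3.03-fold lower. Thinned to 1000 UMIs, 7.06% and 3.66% of these cells had an Il1a UMI (unthinned 36.1% and 29.1%). In normal WT 93 of the 1402 Il1a UMIs came from 1 cell. Alveolar macrophage-like cells held 87.0% of the Il1a UMIs of the normal WT library and 61.4% of the normal Rab37 KO library, but 6.1% in WT tumor and 3.7% in Rab37 KO tumor. Il1b in alveolar macrophage-like cells was 116, 65.9, 196 and 112 CPM, 1.76-fold lower in Rab37 KO than in WT in normal lung. The tumor WT value rests on 25 cells. In normal WT and Rab37 KO the thinned share of these cells with an Il1b UMI was 6.46% and 4.37% (unthinned 26.7% and 25.7%).

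**Figure D1:**
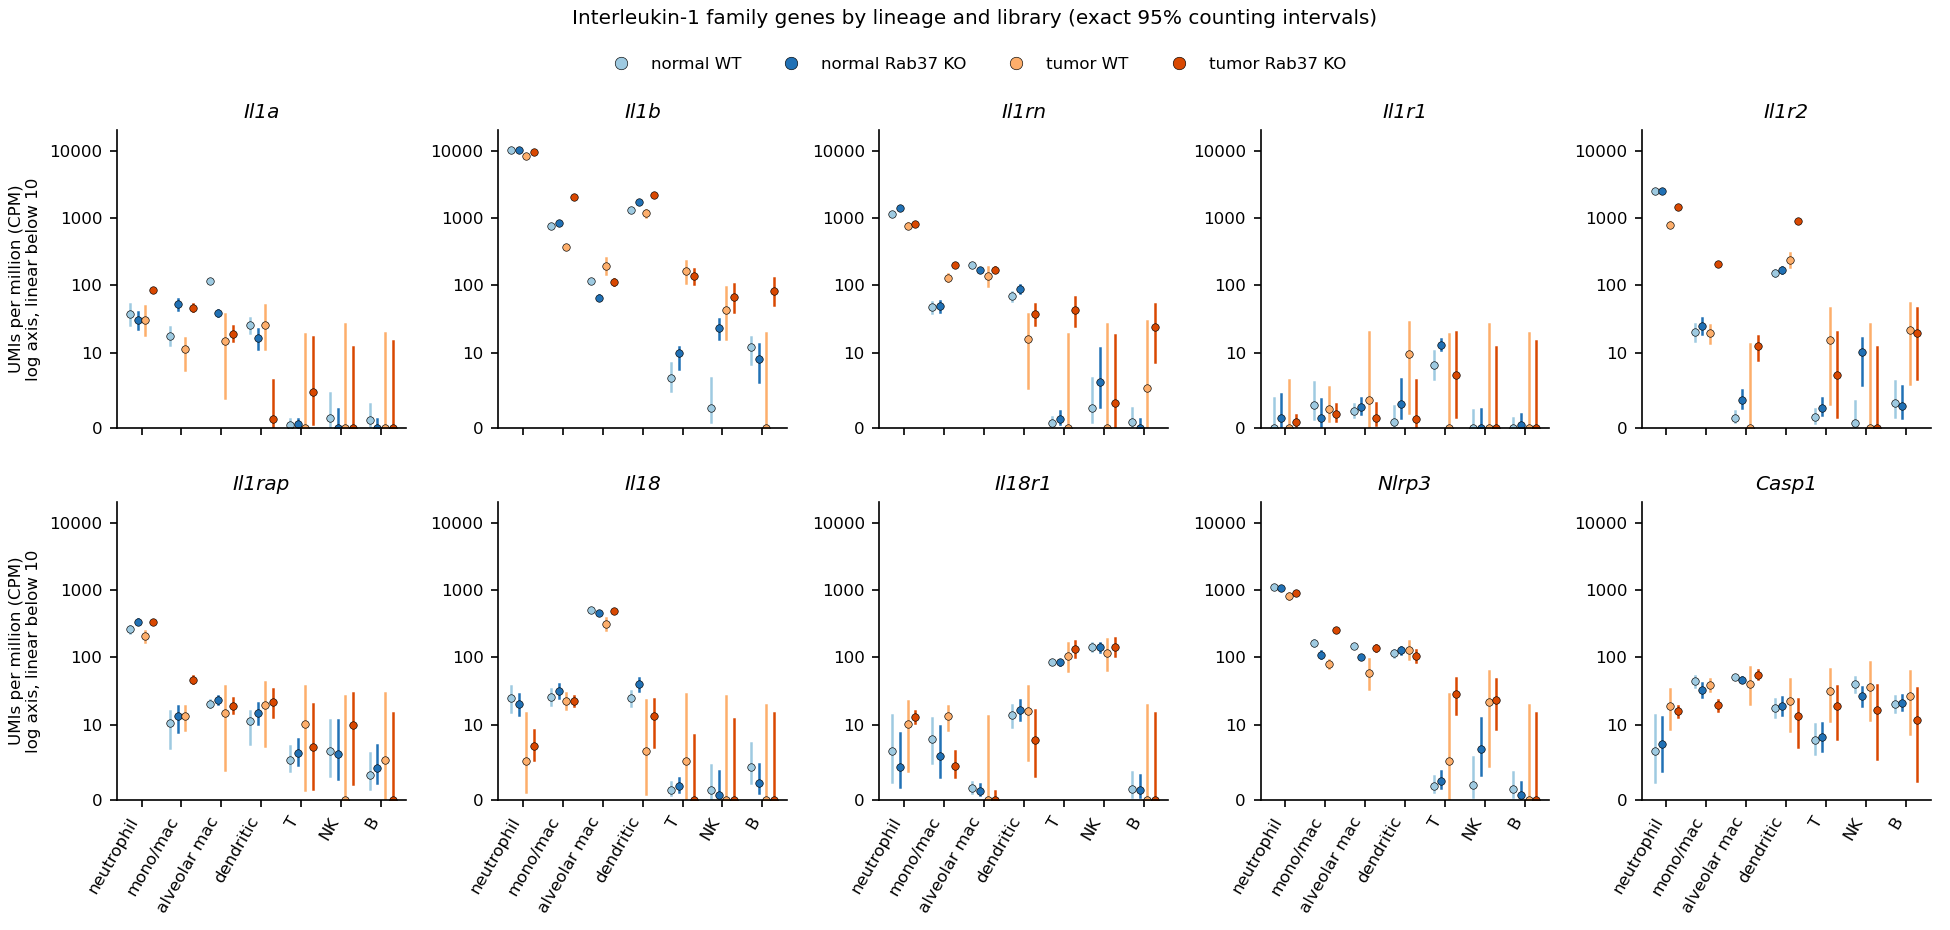
Level of each of the 10 genes in CPM (vertical axis, logarithmic above 10 and linear below) in 7 lineages (horizontal axis), with 1 point per library and exact 95% counting intervals as bars. Il1b, Il1rn, Il1r2, Il1rap and Nlrp3 are highest in neutrophil-like cells, Il18 in alveolar macrophage-like cells and Il18r1 in T- and NK-like cells.

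The antagonist gene Il1rn was lower in the tumor than in the normal neutrophil-like cells. It was at 1147 CPM in normal WT, 1421 CPM in normal Rab37 KO, 771 CPM in WT tumor and 812 CPM in Rab37 KO tumor. Both tumor libraries lay under both normal ones. The ratio of Rab37 KO to WT was 1.24 in normal lung and 1.05 (0.956 to 1.16) in tumor, the second with an interval that includes 1. The tumor Rab37 KO value pools deep clusters of lower Il1rn that had few tumor WT cells, described below. The order was the opposite in monocyte/macrophage-like cells, with 47.9, 49.0, 130 and 199 CPM in normal WT, normal Rab37 KO, tumor WT and tumor Rab37 KO. Both tumor libraries were above both normal ones, and the tumor ratio of Rab37 KO to WT was 1.53 (1.35 to 1.74). That ratio sits at the 1.5-fold limit and depended on the processing. Weighting clusters alike turned it to 0.769, and it fell short of the limit at 1.10 with doublet calls kept, at 1.35 without cells of 1% or more neutrophil-marker UMIs and just under the limit with the CPM total lacking the largest genes. Alveolar macrophage-like cells carried Il1rn at 201, 172, 137 and 171 CPM and held 54.4% of the Il1rn UMIs of the normal WT library. Thinned to 1000 UMIs, 44.6%, 53.9%, 40.9% and 36.9% of neutrophil-like cells had an Il1rn UMI (unthinned 62.7%, 71.9%, 51.7% and 60.7%), against at most 3.08% of B-like cells in any library.

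The decoy receptor Il1r2 differed between the tumor libraries in neutrophil-like, monocyte/macrophage-like and dendritic cell-like cells. In neutrophil-like cells it was at 2519 CPM in normal WT, 2551 CPM in normal Rab37 KO, 796 CPM (725 to 872) in WT tumor and 1476 CPM (1448 to 1504) in Rab37 KO tumor. The normal libraries were the highest and overlapped, tumor WT was the lowest, and tumor Rab37 KO lay between, at 1.85-fold (1.69 to 2.04) tumor WT. Its levels in monocyte/macrophage-like cells were 20.1, 25.4, 19.4 and 206 CPM. There the first 3 libraries overlapped and the tumor Rab37 KO library stood apart, 10.6-fold (7.96 to 14.6) above tumor WT. Il1r2 was far higher in neutrophil-like cells, and the part of neutrophil RNA in the 10.6-fold ratio was not tested. The alternative settings gave 4.89 (doublet calls kept) to 15.8 (a coarser clustering), a wider range than the counting interval. Its thinned share of cells with a UMI was 1.4%, 1.95%, 2.01% and 12.5% (unthinned 4.92%, 8.75%, 9.0% and 36.0%), against at most 1.82% of B-like cells in any library. Dendritic cell-like cells had Il1r2 at 155, 168, 241 and 909 CPM and a tumor ratio of Rab37 KO to WT of 3.76 (2.96 to 4.84). There too tumor Rab37 KO was the highest, but tumor WT lay above normal WT, 1.56-fold, with a counting interval that excludes 1. Of the 74 Il1r2 UMIs in tumor WT, 28 (37.8%) came from 1 cell, so that difference rests largely on this cell. Il1b in dendritic cell-like cells was 1293, 1699, 1168 and 2227 CPM, with a tumor ratio of 1.91 (1.70 to 2.14), from 28 cells in WT tumor and 58 in Rab37 KO tumor. Neutrophil markers made up 0.145%, 0.179%, 0.712% and 0.0890% of the UMIs of those cells, lower in tumor Rab37 KO than in tumor WT.

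The co-receptor Il1rap was also highest in neutrophil-like cells, at 261 CPM (229 to 296) in normal WT, 340 CPM (312 to 370) in normal Rab37 KO, 205 CPM (170 to 246) in WT tumor and 334 CPM (321 to 348) in Rab37 KO tumor. Both Rab37 KO libraries were above their WT library, by 1.30-fold in normal lung and 1.63-fold (1.35 to 1.97) in tumor. The tumor ratio fell under the 1.5-fold limit used for calls with lineage called cell by cell (1.49) and with mixed clusters kept (1.34). Its level in monocyte/macrophage-like cells was 10.7, 13.4, 13.6 and 47.0 CPM, with overlapping intervals in the first 3 libraries and a tumor ratio of 3.45 (2.40 to 5.11), which lay between 1.73 (clusters weighted alike) and 5.59 (no second clustering) in the alternative settings. How much neutrophil RNA adds to the ratio of 3.45 was not tested.

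The signalling chain Il1r1 was nearly absent from the cells with the most Il1b. Neutrophil-like cells held 0, 2, 0 and 6 Il1r1 UMIs in normal WT, normal Rab37 KO, tumor WT and tumor Rab37 KO, and the counts of 0 allow up to 3.98 and 6.37 CPM (upper bounds of the exact intervals). In normal lung, T-like cells held 46.5% of the library's Il1r1 UMIs in WT and 45.1% in Rab37 KO, at 8.37 and 13.3 CPM. Most of those came from a single T-like cluster led by Cxcr6, Icos, Trdc and Tcrg-C1, in which Il1r1 was at 85.9 CPM (65.7 to 110) in WT and 113 CPM (93.0 to 137) in Rab37 KO. A fibroblast-like cluster, outside the sorted CD45+ identity, was at 84.2 and 98.4 CPM. In the tumor libraries 89.0% of Il1r1 UMIs in WT and 92.0% in Rab37 KO were in unnamed cells. Nearly all of these lay in 1 cluster led by Col3a1, Rhox5 and Hmga2, in which 12 of 12 WT and 44 of 44 Rab37 KO cells had an Il1r1 UMI, at 166 CPM (135 to 201) and 136 CPM (124 to 149). In that cluster Ptprc was at 1.61 and 10.8 CPM, far under the immune lineages. Over all cells Il1r1 was 4.13, 7.28, 22.8 and 17.8 CPM, so the higher tumor values sit in cells with little CD45 mRNA.

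Il18 and its receptor chain were found in other lineages than Il1b. Alveolar macrophage-like cells had Il18 at 497 CPM (484 to 510) in normal WT, 450 CPM (437 to 463) in normal Rab37 KO, 315 CPM (251 to 389) in WT tumor and 492 CPM (468 to 518) in Rab37 KO tumor. The tumor WT library, with 25 such cells, was the lowest and the other 3 were close together. These cells held 93.7%, 92.4%, 53.1% and 79.6% of the library's Il18 UMIs. Monocyte/macrophage-like cells had 26.1, 31.6, 22.7 and 22.9 CPM, with overlapping intervals and a tumor ratio of Rab37 KO to WT of 1.01 (0.736 to 1.41). Il18r1, which binds IL-18 on lymphocytes, was at 143, 141, 116 and 144 CPM in NK-like cells and at 85.7, 84.1, 104 and 135 CPM in T-like cells, with overlapping intervals in NK-like cells. The T-like cluster led by Cxcr6 and Icos, which also held the Il1r1 UMIs, had 349 and 327 CPM of Il18r1 in normal WT and Rab37 KO. The monocyte/macrophage-like value of Il18r1 rested on 13 to 33 UMIs a library and was 3.01-fold lower in tumor Rab37 KO than in tumor WT, a ratio of 0.332 (0.193 to 0.567).

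The sensor gene Nlrp3 was higher in tumor Rab37 KO than in tumor WT among monocyte/macrophage-like cells, as Il1b was, and the protease gene Casp1 was lower. Nlrp3 was at 1103, 1062, 816 and 909 CPM in neutrophil-like cells, lowest in tumor WT. Monocyte/macrophage-like cells had Nlrp3 at 162 CPM in normal WT, 110 CPM in normal Rab37 KO, 80.0 CPM (69.1 to 92.0) in WT tumor and 256 CPM (244 to 269) in Rab37 KO tumor. There, tumor WT was again the lowest and tumor Rab37 KO the highest, with a ratio of 3.20 (2.76 to 3.74). Nlrp3 and Il1b did not go together in the other macrophage-like and the dendritic cell-like lineage. In alveolar macrophage-like cells the tumor ratio of Rab37 KO to WT was 2.34 (1.43 to 4.14) for Nlrp3 but 0.572 (0.427 to 0.779) for Il1b. These 2 ratios rest on 25 tumor WT cells with 16 Nlrp3 and 53 Il1b UMIs, 22.6% of the Il1b UMIs from 1 cell. In dendritic cell-like cells the tumor ratio was 0.805 (an interval that includes 1) for Nlrp3 but 1.91 for Il1b. Casp1 was at 6.48, 7.45, 19 and 16 CPM in neutrophil-like cells, under its level in every macrophage-like lineage. Monocyte/macrophage-like cells had Casp1 at 44.1 CPM (36.0 to 53.5), 33.4 CPM (26.3 to 41.9), 39.2 CPM (31.7 to 47.9) and 19.4 CPM (16.1 to 23.2). The tumor Rab37 KO library was the lowest, at 0.495 (0.375 to 0.654) of tumor WT, or 2.02-fold lower, while Il1b and Nlrp3 were higher there. Alveolar macrophage-like cells held 57.4% and 54.0% of the Casp1 UMIs of the normal WT and Rab37 KO libraries, at 51.1 and 46.8 CPM.

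**Figure D2:**
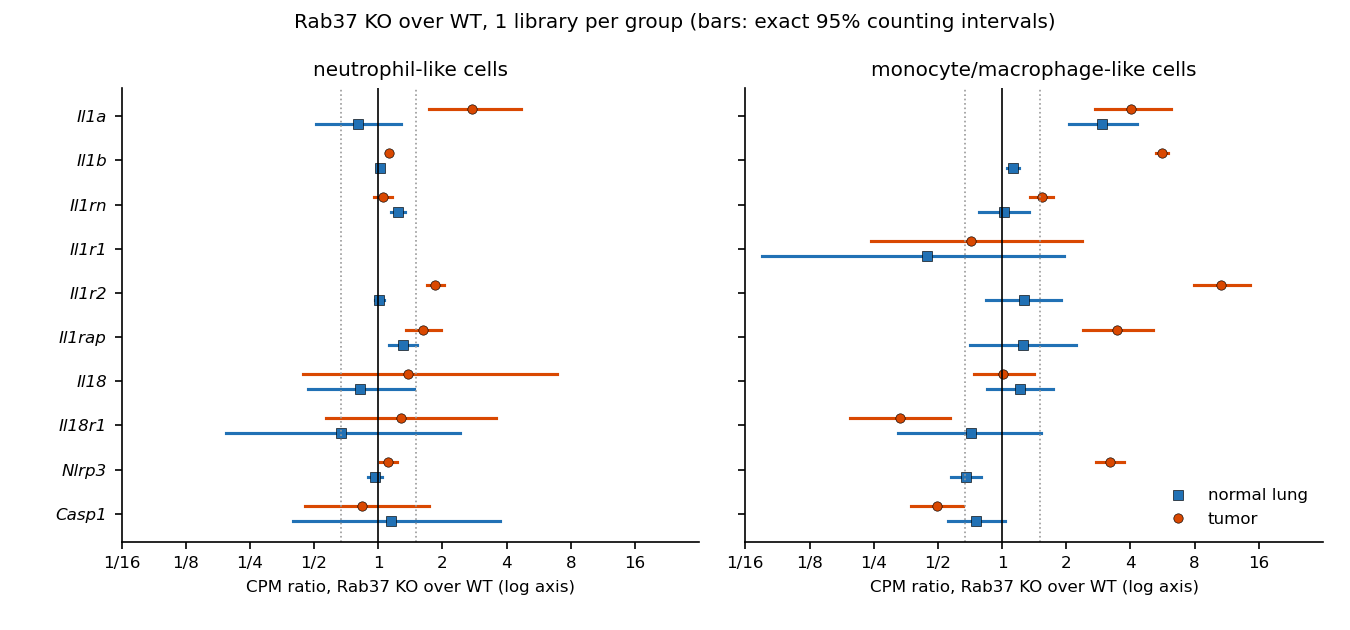
Ratio of CPM in Rab37 KO to WT (horizontal axis, logarithmic) for each gene in neutrophil-like and monocyte/macrophage-like cells, squares for normal lung and circles for tumor, bars exact 95% counting intervals, dotted lines at 1.5-fold either way. The tumor ratios in monocyte/macrophage-like cells of Il1a, Il1b, Il1r2, Il1rap and Nlrp3 lie between 3.20 and 10.6 and that of Casp1 at 0.495, while normal lung ratios other than those of Il1a and Il1r1 lie within 1.5-fold.

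Read as counts, a gene was called higher or lower where it had at least 10 UMIs over both libraries and differed at least 1.5-fold. For Rab37 KO against WT in tumor, 3 of 9 measured members were higher in neutrophil-like cells (Il1a, Il1r2 and Il1rap) and 0 lower, where 22.1% of all 9488 genes were higher and 22% lower. The median log2 ratio of the 9 members was 0.36, beside -0.15 over all genes. In monocyte/macrophage-like cells 6 of 10 members were higher (Il1a, Il1b, Il1rn, Il1r2, Il1rap and Nlrp3) and 2 lower (Il18r1 and Casp1), where 25% of all 11237 genes were higher and 14.3% lower. The median log2 ratio there was 1.15, beside 0.11 over all genes. Between the genotypes in normal lung, 0 of 9 members were called in neutrophil-like cells (background 16% higher and 11% lower). In monocyte/macrophage-like cells of normal lung 1 of 10 was higher, Il1a, and 1 lower, Il1r1 with 10 UMIs in all, a ratio of 0.446 that became 1.38 with lineage called cell by cell (background 9.49% higher and 8.29% lower). The median log2 ratios were 0.02 and 0.10 in these lineages, beside 0.03 and 0.05 over all genes. The neutrophil-like counts were near or under the background in both genotype comparisons, and no test compares the members with other genes.

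Tumor against normal lung gave different member sets in the WT and Rab37 KO libraries. In WT neutrophil-like cells, 2 of 9 members were higher (Il18r1, 1.60-fold, and Casp1, 2.93-fold) and 2 lower (Il1r2, 3.17-fold, and Il18, 4.79-fold), where 39.2% of genes were higher and 14.9% lower. In Rab37 KO neutrophil-like cells 3 of 9 were higher (Il1a, 2.81-fold, Il18r1, 3.06-fold, and Casp1, 2.14-fold) and 3 lower (Il1rn, 1.75-fold, Il1r2, 1.73-fold, and Il18, 2.88-fold), where 40.9% of genes were higher and 12.5% lower. Il18, Il18r1 and Casp1 rested on few neutrophil UMIs, with no more than 12 in any library other than tumor Rab37 KO except for Il18 in normal lung. The median log2 ratio was -0.35 in WT and -0.13 in Rab37 KO, beside 0.36 and 0.30 over all genes. In WT monocyte/macrophage-like cells 2 of 10 were higher (Il1rn, 2.72-fold, and Il18r1, 1.67-fold) and 3 lower (Il1a, a ratio of 0.642, Il1b, 2.06-fold, and Nlrp3, 2.03-fold), where 25.2% of genes were higher and 23.7% lower. In Rab37 KO monocyte/macrophage-like cells 5 of 10 were higher (Il1b, 2.42-fold, Il1rn, 4.07-fold, Il1r2, 8.12-fold, Il1rap, 3.51-fold, and Nlrp3, 2.33-fold) and 1 lower (Casp1, a ratio of 0.580), where 25% of genes were higher and 16.5% lower. The median log2 ratio was -0.19 in WT and 0.81 in Rab37 KO, beside 0.0048 and 0.09 over all genes. Most tumor cells of this lineage lay in clusters with few or no normal-lung cells, so these ratios compare different clusters. Where clusters were weighted alike, the WT ratios of Il1b and Nlrp3 turned to 1.08 and 1.54, and the Rab37 KO ratios of Il1b, Il1rn and Il1rap to 0.785, 0.826 and 0.808. In WT that weighting rests on 1 cluster, the classical monocytes, the only one with 10 cells in both libraries. In Rab37 KO it also took Nlrp3 to 1.25 and Casp1 to 0.880, and calling each cell's lineage singly took Il1r2 from 8.12 to 1.49, so these calls were lost. In Rab37 KO neutrophil-like cells, weighting alike left 1 cluster with 11 tumor cells, in which Il1a and Il18r1 had no tumor UMI and Il1r2 and Il18 came to 1.06 and 1.29. Other WT calls turned with other choices: Casp1 in neutrophil-like cells to 0.978 with the mixed clusters kept, and in monocyte/macrophage-like cells Il18r1 to 0.801 with doublet calls kept, Il1a to 1.10 at a coarser clustering and Il1rn to 0.979 with each cell's lineage called singly.

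The balance of agonist to antagonist was read as the ratio of UMIs in the same cells, which does not depend on the CPM total. Such a ratio of 2 genes also depends on how well each is captured, so it was compared between libraries and lineages and not against 1. In neutrophil-like cells there were 8.84 Il1b UMIs per Il1rn UMI in normal WT (8.30 to 9.43), 7.26 in normal Rab37 KO (6.95 to 7.59), 10.9 in tumor WT (9.89 to 12) and 11.6 in tumor Rab37 KO (11.3 to 11.9). The tumor libraries were higher than the normal ones and overlapped each other. The ratio in monocyte/macrophage-like cells was 15.7 (13 to 19.2), 17.3 (14.3 to 21.2), 2.80 (2.46 to 3.20) and 10.3 (9.72 to 10.9). Tumor WT stood well under the other 3, and the ratio in tumor Rab37 KO was 3.68 times that in tumor WT. With lineage called cell by cell this factor was 2.19. Alveolar macrophage-like cells had the lowest Il1b per Il1rn UMI of the myeloid lineages, with 0.577, 0.384, 1.43 and 0.655. Dendritic cell-like cells had the highest, with 18.8, 19, 71.6 and 59.1, the tumor WT value from 5 Il1rn UMIs. For Il1a per Il1rn UMI the neutrophil-like values were 0.0329, 0.0214, 0.0403 and 0.105, highest in tumor Rab37 KO.

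Per decoy receptor UMI, tumor Rab37 KO had fewer Il1b UMIs than tumor WT in neutrophil-like cells as a whole. This difference was clear in the Wfdc17/Lrg1 cluster described below, but the tumor libraries overlapped in the Cxcl3/Ccl3 cluster. In monocyte/macrophage-like cells the difference depended on the doublet calls. Neutrophil-like cells had 4.03 and 4.04 Il1b UMIs per Il1r2 UMI in normal WT and Rab37 KO, 10.6 in WT tumor and 6.37 in Rab37 KO tumor, so the tumor Rab37 KO ratio was 0.603 of that in tumor WT. Monocyte/macrophage-like cells had 37.4, 33.5, 18.9 and 9.96, and the tumor Rab37 KO ratio was 0.528 of that in tumor WT. With doublet calls kept this value was 0.916, close to no difference. The clusters of this lineage described below did not all share the order: the values in tumor WT and Rab37 KO were 26.3 and 10.8 in the Arg1/C1qb, 18.1 and 5.37 in the Spp1/Gpnmb, 26.8 and 12 in the classical monocyte and 19.5 and 25.2 in the Arg1/Vcan cluster, the last with 2 Il1r2 UMIs in WT. Per antagonist UMI tumor Rab37 KO had more Il1b in monocyte/macrophage-like cells, and the 2 tumor libraries overlapped in neutrophil-like cells. Neutrophil-like cells had at most 0.000546 Il1r1 UMIs per Il1r2 UMI in the libraries with an Il1r1 UMI.

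**Figure D3:**
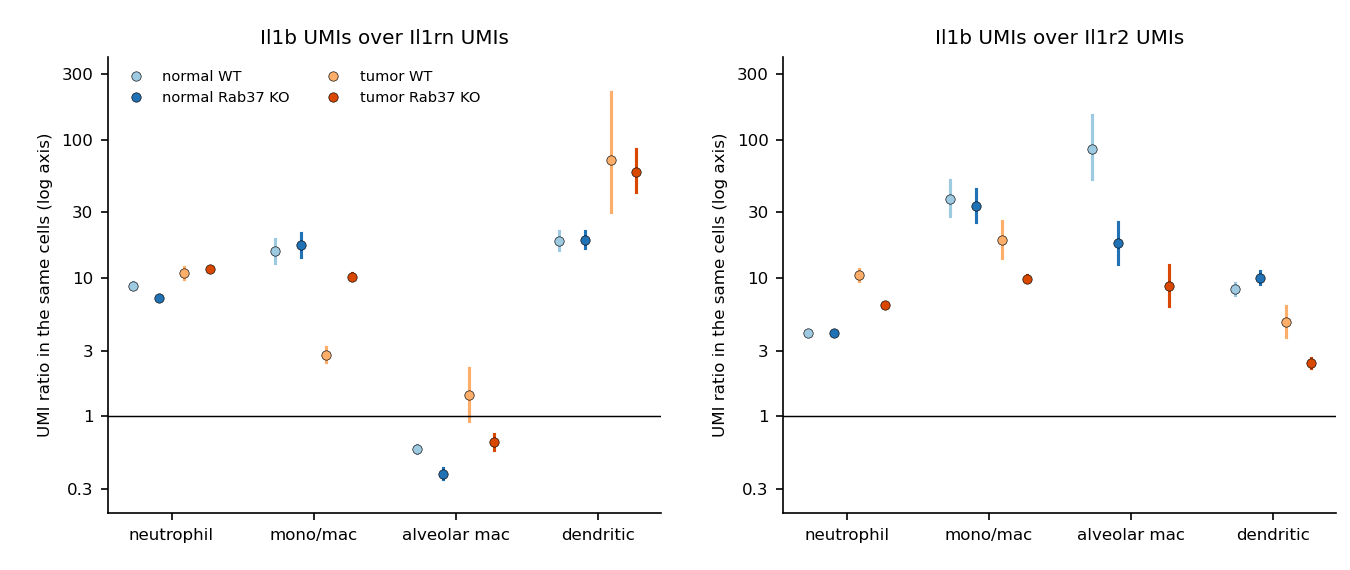
Il1b UMIs per Il1rn UMI (left) and per Il1r2 UMI (right) on logarithmic vertical axes, in 4 myeloid lineages (horizontal axis), with 1 point per library and exact 95% counting intervals. Of the monocyte/macrophage-like points, that of tumor WT at 2.80 per Il1rn UMI lies under the other 3 libraries, and on the right the tumor Rab37 KO points lie under tumor WT; the alveolar tumor WT point is missing on the right because no Il1r2 UMI was counted.

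The neutrophil-like tumor cells fell into clusters that differed in Il1b and Il1rn. In normal lung, 96.4% (WT) and 97.3% (Rab37 KO) of neutrophil-like cells were in 1 cluster led by S100a9, G0s2 and Hdc, which held 9 and 11 tumor cells. In tumor, a cluster led by Cxcl3 and Ccl3 held 37.3% of neutrophil-like cells in WT and 45.3% in Rab37 KO, and a cluster led by Wfdc17 and Lrg1 held 48.3% and 39.6%. In the Cxcl3/Ccl3 cluster Il1rn was at 2105 CPM in WT and 1516 CPM in Rab37 KO, and in the Wfdc17/Lrg1 cluster at 253 and 187 CPM. Il1b was at 7318 and 11806 CPM in the first and at 11558 and 11532 CPM in the second. The Il1b UMIs per Il1rn UMI were accordingly 3.48 (WT) and 7.79 (Rab37 KO) in the Cxcl3/Ccl3 cluster and 45.7 and 61.7 in the Wfdc17/Lrg1 cluster. Both clusters thus had less Il1rn in Rab37 KO than in WT, with ratios of 0.720 (0.644 to 0.808) and 0.739 (0.570 to 0.969), although the lineage as a whole had a ratio of 1.05. For Il1b the ratio was 1.61 (1.52 to 1.71) in the Cxcl3/Ccl3 cluster and 0.998 in the Wfdc17/Lrg1 cluster. For Il1r2 it was 1.83 and 2.44 (2.14 to 2.79), and for Il1rap 1.83 and 1.68, higher in Rab37 KO in both clusters. Nlrp3 went up in one and down in the other, with 1.90 and 0.676. Il1a was higher in the Cxcl3/Ccl3 cluster, at 57.4 and 160 CPM, than in the Wfdc17/Lrg1 cluster, at 7.23 and 16 CPM. In tumor WT the Cxcl3/Ccl3 cluster held 9 Il1a UMIs. The 9 tumor WT cells of the S100a9/G0s2 cluster held 6, at 274 CPM (101 to 597), and its 11 tumor Rab37 KO cells held 0. A cluster led by Ngp and Lcn2, genes of neutrophil secondary granules that mark immature cells, had less Il1b (2619 and 3127 CPM) and Il1rn (91.9 and 72.9 CPM), with 17 and 75 cells. The other neutrophil-like clusters of tumor Rab37 KO had 43, 32 and 38 cells there and fewer than 5 each in tumor WT. Their median depths were 12798, 12758 and 17315 UMIs. Il1b was at 6862, 978 and 4746 CPM and Il1rn at 530, 150 and 471 CPM in them. The tumor ratios of the lineage pool them with the clusters above, and their part in those ratios was not tested. Median UMIs per cell in the Cxcl3/Ccl3 cluster were 1688 in WT and 3480 in Rab37 KO, and the part of this depth gap in the ratios was not tested.

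The monocyte/macrophage-like cells of the tumor libraries were spread differently over clusters. A cluster led by Spp1, Gpnmb and Trem2 held 55.5% of them in WT and 5.56% in Rab37 KO. One led by Arg1, Vcan and Thbs1 held 6.00% and 33.6%, one led by Arg1, C1qb and Pf4 16.5% and 14.7%, one led by C1qa and Ccl12 2.50% and 20.2%, and the classical monocyte cluster led by F13a1 and Ms4a4c 12.5% and 20.7%. The member levels were therefore also compared within clusters. Il1b in the Arg1/Vcan cluster was at 735 CPM in WT and 3172 CPM in Rab37 KO, a ratio of 4.32 (3.15 to 6.08) from 12 WT cells. In the Arg1/C1qb cluster it was at 628 and 3294 CPM, 5.24-fold (4.47 to 6.18), and in the Spp1/Gpnmb cluster at 218 and 645 CPM, 2.96-fold (2.57 to 3.41). In the classical monocyte cluster the order was reversed, with 963 CPM in WT and 636 CPM in Rab37 KO, a ratio of 0.660 (0.550 to 0.795). Il1b was thus higher in Rab37 KO in 3 of the 4 clusters with at least 10 cells in both libraries. The C1qa/Ccl12 cluster had only 5 WT cells beside 91 Rab37 KO cells, and its levels were 599 and 1667 CPM of Il1b and 79.0 and 266 CPM of Il1r2. It held 30.4% of the lineage's Il1b UMIs and 48.3% of its Il1r2 UMIs in tumor Rab37 KO, so much of the Il1r2 of this lineage there came from a cluster with few WT cells to compare. Neutrophil markers made up 1.89% of its UMIs in Rab37 KO, where 34.1% of its cells were at 1% or more. In the other 4 clusters they made up 0.0546% and 0.0884% of UMIs in the Arg1/Vcan cluster (WT and Rab37 KO), 0.344% and 1.21% in Arg1/C1qb, 0.276% and 0.456% in Spp1/Gpnmb and 0.977% and 0.136% in the classical monocytes. The share of these markers was higher in the library with more Il1b in each of the 4 clusters, and the part of this RNA in the Il1b and Il1r2 ratios of the clusters was not tested.

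Il1rn in the same 4 clusters had ratios of 0.430 (0.279 to 0.694) in Arg1/Vcan, 0.950 in Arg1/C1qb, 1.88 in Spp1/Gpnmb and 0.422 in the classical monocytes. It was therefore lower, near equal or higher in Rab37 KO depending on the cluster. The Il1b UMIs per Il1rn UMI were higher in Rab37 KO in all 4, with overlapping intervals in the classical monocytes. They were 1.70 (WT) and 17 (Rab37 KO) in Arg1/Vcan, 1.78 and 9.80 in Arg1/C1qb and 2.20 and 3.47 in Spp1/Gpnmb. The classical monocytes had 12.4 (7.04 to 23.8) and 19.3 (12.7 to 30.8), from 13 and 23 Il1rn UMIs. For Il1r2 the ratios were 3.35 (0.909 to 27.9), 12.8 (5.84 to 35.2), 10.0 (6.09 to 17.1) and 1.47 in the same order. The first and the last have intervals that include 1, the last from 6 UMIs in WT and 37 in Rab37 KO. For Nlrp3 they were 2.56, 3.58, 1.55 and 0.828, the same direction as Il1b in each cluster.

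**Figure D4:**
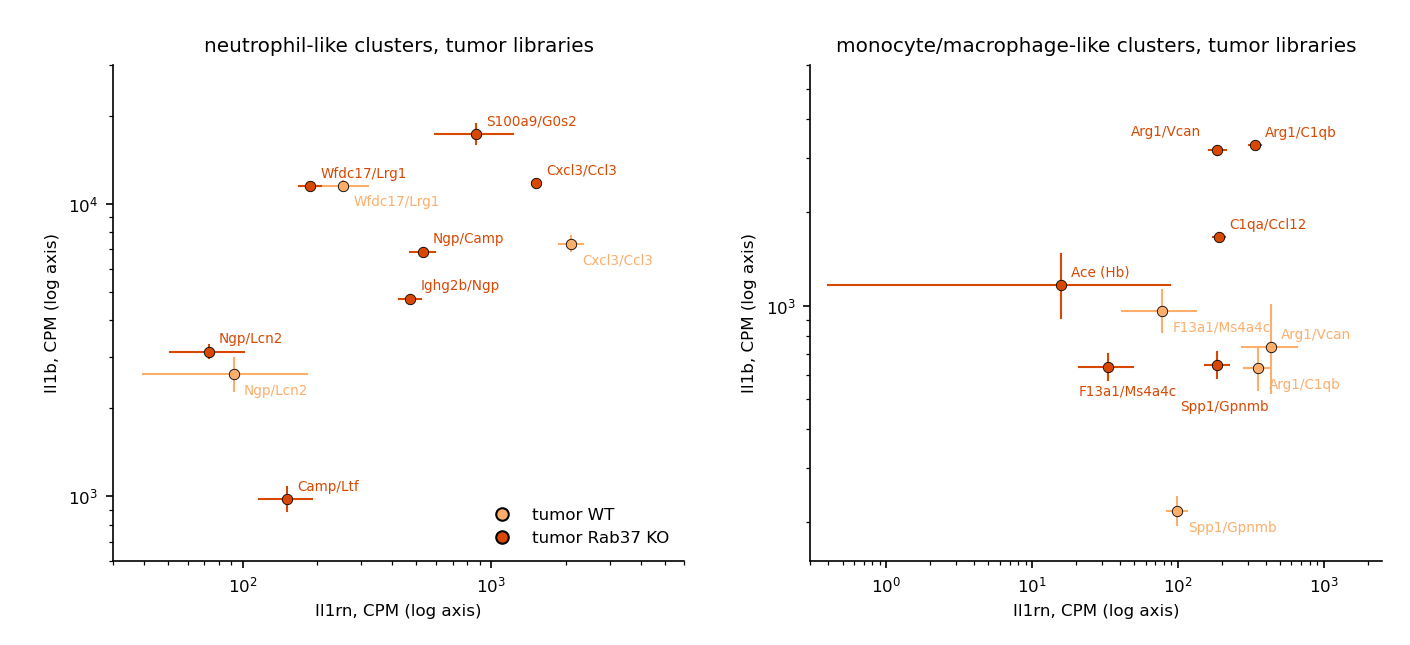
Il1b (vertical axis) against Il1rn (horizontal axis), both in CPM on logarithmic axes, for each neutrophil-like and monocyte/macrophage-like cluster of the 2 tumor libraries, named by leading genes, with exact 95% counting intervals. The Arg1/Vcan and Arg1/C1qb clusters sit at 3172 and 3294 CPM of Il1b in Rab37 KO and at 735 and 628 CPM in WT; Ace (Hb) is a nonclassical monocyte cluster with hemoglobin genes.

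Agonist, antagonist and decoy receptor were often detected in the same neutrophil-like cell. Thinned to 1000 UMIs, 36.1% of neutrophil-like cells in normal WT, 44.1% in normal Rab37 KO, 17.7% in WT tumor and 24.1% in Rab37 KO tumor had UMIs of Il1b, Il1rn and Il1r2 together. Both tumor libraries were under both normal ones. Such joint shares depend on the share of cells with each gene, and whether these genes go together within cells was not tested. The share with Il1b but neither Il1rn nor Il1r2 was 8.71% (6.07 to 12), 7.17% (5.17 to 9.63), 26.1% (20.2 to 32.7) and 15.1% (13.2 to 17.2). That share was highest in tumor WT, which also had the fewest cells with Il1r2. Il1b without the other 2 genes was, in monocyte/macrophage-like cells, the usual state among cells with a UMI, with 30.9%, 39.7%, 22.1% and 42.1% of all cells. At this depth a cell without a UMI may still express the gene.

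**Figure D5:**
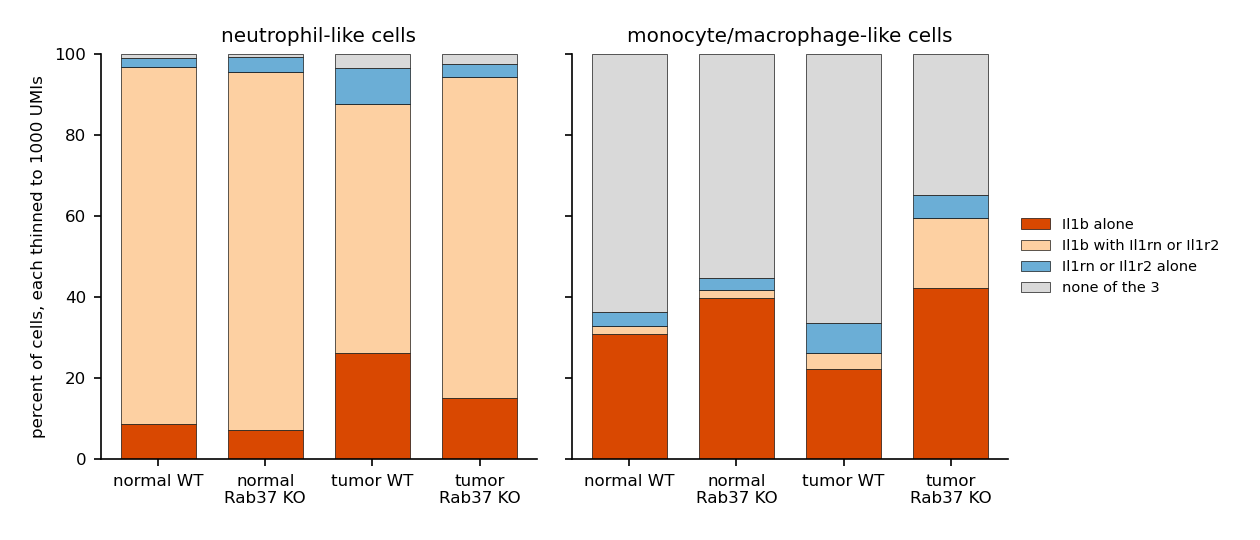
Share of cells (vertical axis, percent, each cell thinned to 1000 UMIs) with Il1b alone, Il1b with Il1rn or Il1r2, Il1rn or Il1r2 alone, or none of the 3, as stacked bars for the 4 libraries. Il1b alone is highest in tumor WT among neutrophil-like cells (26.1%) and in tumor Rab37 KO among monocyte/macrophage-like cells (42.1%).

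Other IL-1 family, adaptor and inflammasome genes were read from a list of 31, of which 27 were in the matrices. For Rab37 KO against WT in tumor, 3 of 22 measured were higher and 2 lower in neutrophil-like cells, and 5 of 25 higher and 6 lower in monocyte/macrophage-like cells. Over all genes the shares higher and lower were 22.1% and 22% in the first lineage and 25% and 14.3% in the second. Among those with the largest ratios, Il18rap, the second chain of the IL-18 receptor, was at 166 CPM in Rab37 KO and 102 CPM in WT tumor neutrophil-like cells, 1.63-fold (1.25 to 2.15). It was also 1.54-fold higher in Rab37 KO in normal lung, at 136 and 88.5 CPM. Txnip, whose protein binds NLRP3, had tumor ratios of 0.672 in neutrophil-like and 0.656 in monocyte/macrophage-like cells. Myd88, the adaptor of IL-1 and IL-18 receptors, had 0.785 in the first and 1.71 (1.35 to 2.20) in the second lineage. Pycard, which encodes the inflammasome adaptor ASC, had 0.748 and Nek7, an NLRP3 partner, 1.31 in monocyte/macrophage-like cells, both within 1.5-fold. In normal lung 7 of 20 were higher and 2 lower in neutrophil-like cells of Rab37 KO, and 2 of 23 higher and 1 lower in monocyte/macrophage-like cells, where Irak2 had the largest ratio named, 1.34. Over all genes 16% were higher and 11% lower in the first lineage and 9.49% and 8.29% in the second.

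Between tumor and normal lung the largest ratios of this list were those of Myd88, Pycard and Ninj1. In neutrophil-like cells 10 of 20 were higher and 5 lower in WT, and 8 of 22 higher and 5 lower in Rab37 KO, where 39.2% and 40.9% of all genes were higher and 14.9% and 12.5% lower. Myd88 was 2.29-fold and Casp4, the mouse caspase-11 gene, 1.87-fold higher in tumor WT, and Ninj1, needed for membrane rupture in lytic death, had a ratio of 0.439. In Rab37 KO Casp4 was 1.86-fold higher and Ninj1 had a ratio of 0.549. In monocyte/macrophage-like cells 4 of 24 were higher and 6 lower in WT, and 4 of 25 higher and 6 lower in Rab37 KO, where 25.2% and 25% of all genes were higher and 23.7% and 16.5% lower. Pycard was 2.17-fold higher in WT, at 345 CPM in tumor and 159 CPM in normal lung, and 1.95-fold higher in Rab37 KO, at 258 and 132 CPM.

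The genes whose level followed each member most closely were found over 26 lineage-by-library units of at least 50 cells, as Pearson correlations of log2(CPM + 10) among 1830 genes. These units share libraries and cell depth, so the values are descriptions. Il1b was closest to Ptgs2 and Ifitm2 (both 0.965) and Gpr35 (0.953). Il1rn was closest to Ccr1 (0.953), Nlrp3 (0.950) and Slc15a3 (0.941), so another member is among its nearest genes. Il1r2 was closest to Cpne2 (0.956), Lmnb1 (0.955) and Antxr2 (0.941). Il18 was closest to Tcf7l2 (0.962), Ear2 (0.946) and Lima1 (0.944), Ear2 being a marker used to name alveolar macrophage-like cells. Il18r1 was closest to the lymphocyte genes Ctsw (0.963), Nkg7 (0.955) and Il2rb (0.953).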

How the data were processed

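The authors deposited 1 matrix of raw counts (UMIs, whole numbers) for each library, made on mm10 per the submitters' processing notes. The file headers name software version 3.0.1 for the normal and 3.1.0 for the tumor libraries, and no source used here gives the aligner settings. The labels name 1 library for each of 4 groups (WT and Rab37 KO, normal lung and tumor), and total counts per library ranged from 5183771 to 34369993. Of 14396 barcodes, 13344 passed a minimum of 200 genes and a maximum of 10% mitochondrial UMIs. Scrublet marked 179, 80, 3 and 4 of these as doublets in normal WT, normal Rab37 KO, tumor WT and tumor Rab37 KO. In both tumor libraries that is under 0.5%, so doublets were hardly removed there. Cells were clustered jointly with scanpy 1.11.5 and leidenalg 0.10.2 on Python 3.11.15 (2000 variable genes, 30 components, 15 neighbours, resolution 1, seed 1), with the members, the other IL-1 genes, sex-linked genes and Rab37 left out. Clusters scoring in more than 1 lineage were clustered again. Of 62 final clusters, 17 whose second lineage scored 2 or more within 2 of the first were left out as mixed. The rest were named from 19 marker classes, all 137 markers of which were in the files, or left unnamed.

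UMIs were summed per lineage and library and given as CPM with exact 95% Poisson intervals. Ratios of 2 libraries have exact conditional binomial intervals and shares Clopper-Pearson intervals (scipy 1.17.1). Only the ratio intervals were tried on simulated data, for neutrophil-like and monocyte/macrophage-like cells. Those data were Poisson draws without spread between cells or mice, so they do not test such spread. For shares, cells were thinned to 1000 UMIs. A member was called at 1.5-fold with at least 10 UMIs over both libraries. Genes of the other list were named as the up to 4 with the largest ratio, at least 50 CPM in 1 library and 20 UMIs in all, and for likeness the 3 with the highest correlation. The members, lists and thresholds were chosen with earlier results of these data known. Alternatives changed 1 choice at a time: doublets, resolution, lineage calling, cell filters, CPM total, top cell, neutrophil-marker cells, cluster weights, fold, UMI minimum and thinning depth. Keeping mixed clusters and skipping the second clustering were added after the data were seen.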

Additional observations from a re-analysis of the deposited data

Results flagged for a closer look

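In monocyte/macrophage-like cells Il1b went in opposite directions between tumor and normal lung: the tumor to normal ratio was 0.485 in WT and 2.42 in Rab37 KO. Nlrp3 did the same, with ratios of 0.493 in WT and 2.33 in Rab37 KO. With clusters weighted alike the directions did not hold: Il1b came to 1.08 in WT, where 1 cluster had 10 cells in both libraries, and to 0.785 in Rab37 KO, and Nlrp3 to 1.54 and 1.25, above 1 in both genotypes. With 1 library per group the difference between the genotypes was not tested, and the tumor WT and tumor Rab37 KO libraries also differ in sex and in the clusters that fill the lineage.

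Il1r1 UMIs of the tumor libraries lay almost entirely outside the named lineages, with 89.0% (tumor WT) and 92.0% (tumor Rab37 KO) of them in unnamed cells, beside 2.82% and 0.813% in normal WT and normal Rab37 KO.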

How the results depend on the processing

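No paired analysis was possible because each group had 1 library. Of 264 alternative values of counts, UMI ratios and shares, 204 stayed within 1.5-fold or the counting interval of the reported value and 60 moved. Of 356 alternative values for the 34 member ratios called, 306 were still called, 34 were no longer called and 16 reversed. The cause of a change was not tested unless the setting itself gives it.

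In tumor, the neutrophil-like count of higher members for Rab37 KO against WT was 3 as reported, 5 without the top cell for each gene and 1 at 2-fold, and the lower count went from 0 to 1 with clusters weighted alike. In normal lung the neutrophil-like higher count went from 0 to 1 with doublet calls kept, with lineage called cell by cell and with no second clustering. The lower count went from 0 to 1 with clusters weighted alike or no second clustering and to 2 with mixed clusters kept. In monocyte/macrophage-like cells of normal lung the lower count went from 1 to 0 with doublets kept, lineage cell by cell, clusters weighted alike or at least 30 UMIs, to 2 with the CPM total lacking the largest genes and to 3 without cells of 1% or more neutrophil-marker UMIs. The higher count there went from 1 to 2 with lineage cell by cell and without the neutrophil-marker cells.

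For tumor against normal lung in WT, the neutrophil-like higher count of 2 was 1 with lineage cell by cell, without the top cell, at 2-fold or with no second clustering, and 0 at 30 UMIs or with mixed clusters kept. The lower count of 2 was 4 without the top cell and 1 at 30 UMIs. In monocyte/macrophage-like cells the higher count of 2 was 1 at resolution 0.5, with lineage cell by cell, without the neutrophil-marker cells, with clusters weighted alike, at 2-fold, with mixed clusters kept and with no second clustering. The lower count of 3 was 6 with lineage cell by cell and 0 with clusters weighted alike. In Rab37 KO the neutrophil-like lower count of 3 was 1 at 2-fold or with no second clustering. The monocyte/macrophage-like lower count of 1 was 2 with doublets kept, at resolution 0.5, with mixed clusters kept or no second clustering, and 0 with clusters weighted alike or at 2-fold, and the higher count of 5 was 2 with clusters weighted alike.

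The tumor Rab37 KO to WT quotient of Il1b per Il1rn UMI in monocyte/macrophage-like cells was 3.68, and 2.19 with lineage cell by cell, 4.72 without the neutrophil-marker cells, 2.94 with mixed clusters kept and 3.01 with no second clustering. The quotient of Il1b per Il1r2 UMI went from 0.528 to 0.916 with doublets kept. The share of neutrophil-like cells with an Il1b UMI was 93.4% in tumor WT at 1500 UMIs, and in tumor Rab37 KO 89.5% at 500 UMIs, 95.7% at 1500 and 97.0% unthinned. For monocyte/macrophage-like cells it was 19% at 500 UMIs and 48.0% unthinned in tumor WT. In tumor Rab37 KO it was 50% at 500 UMIs, 68.6% at 1500, 81.6% unthinned, 53.9% with doublets kept, 69.6% with lineage cell by cell and 73.2% with no second clustering.

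Reversals were confined to these settings. In tumor, Il1rn for Rab37 KO against WT in monocyte/macrophage-like cells went from 1.53 to 0.769 with clusters weighted alike. In normal lung Il1r1, with 10 UMIs, went from 0.446 to 1.38 with lineage cell by cell. For tumor against normal lung in WT, Casp1 in neutrophil-like cells went from 2.93 to 0.978 with mixed clusters kept. In WT monocyte/macrophage-like cells Il18r1 went from 1.67 to 0.801 with doublets kept and 0.701 at resolution 0.5, Il1a from 0.642 to 1.10 at resolution 0.5, Il1rn from 2.72 to 0.979 with lineage cell by cell, and Il1b and Nlrp3 to 1.08 and 1.54 with clusters weighted alike, which there means the classical monocyte cluster alone. In Rab37 KO, weighting clusters alike left 1 neutrophil-like cluster with 11 tumor cells, where Il1a and Il18r1 came to 0, Il1r2 to 1.06 and Il18 to 1.29, and in monocyte/macrophage-like cells it turned Il1b to 0.785, Il1rn to 0.826 and Il1rap to 0.808. For Rab37 KO against WT in tumor monocyte/macrophage-like cells, Il1b (3.04 to 6.74), Il1r2 (4.89 to 15.8), Nlrp3 (2.05 to 3.57), Il1a (3.42 to 14.4) and Il1rap (1.73 to 5.59) were above 1.5 and Casp1 (0.432 to 0.593) below 1 in all 11 settings. Weighting clusters alike gave no WT value in neutrophil-like cells for tumor against normal lung, since no cluster had 10 cells in both, and none for Il18r1 in WT monocyte/macrophage-like cells. The CPM total does not enter UMI ratios, and the neutrophil-marker setting was run on monocyte/macrophage-like cells alone. Depth limits Il1r1 in neutrophil-like cells, and Il18, Il18r1 and Casp1 in tumor WT.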
